A study of Mus musculus with 6 samples.

Results

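The mitochondrial ribosomal protein genes were taken as all protein-coding genes of the GENCODE vM21 annotation (mouse genome mm10) whose symbol begins with Mrpl or Mrps and a digit, which gave 78 of 22028 genes. Of these, 51 encode proteins of the large subunit of the mitochondrial ribosome and 26 encode proteins of the small subunit. Mrps36 carries the name but is now known as KGD4, a component of the 2-oxoglutarate dehydrogenase complex, and was kept because its symbol meets the rule. CDK6 chromatin binding at their promoters was read from ChIP-seq in murine pre/pro B-cells, transformed by BCR-ABL(p185) on a Cdk6-/- background, in which an HA-tagged form of CDK6 was overexpressed. The cells of the first group carried wildtype CDK6 (CDK6-WT, 2 libraries), and those of the second the kinase inactive mutant CDK6-K43M (2 libraries). Cells of both groups lacked endogenous CDK6 and carried BCR-ABL(p185), and both groups were precipitated with the same antibody against the HA tag. The transduced CDK6 replaces a deleted gene at levels set by overexpression, and nothing in the labels says that libraries of the same variant came from separate cultures, so that p-values measure only the spread between these libraries. Comparing them addresses whether CDK6 needs kinase activity to be found at these promoters. Peak positions hold no marker of cell identity, and the labelled cell type could not be checked against marker genes.

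Mitochondrial ribosomes translate the few proteins encoded by mitochondrial DNA, all of them core subunits of the oxidative phosphorylation complexes. Their ribosomal RNA comes from mitochondrial DNA, whereas every protein of the mitochondrial ribosome is encoded in the nucleus, made in the cytosol and imported. The supply of respiratory chain complexes therefore depends on nuclear promoters of this kind, many of which are short, rich in CpG and bound by factors such as nuclear respiratory factor 1 (NRF-1), ETS family members or YY1. CDK6 has no DNA-binding domain of its own and reaches chromatin together with other proteins.

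A promoter was the stretch between 2000 bp before and 200 bp after any annotated transcript start of a gene, and a peak counted when it overlapped this stretch by at least 1 bp. The sequences printed here lie just upstream of a transcript start, near the summit (the highest point) of the strongest peak, and were read from the GRCm38 (mm10) genome. Each is given from 5′ to 3′ on the strand of its gene, and capitals mark a match to one of the 9 motifs searched. They were chosen to show 2 of the most strongly occupied promoters with a motif, 1 without any of the 9 motifs (Mrpl1), and 3 further promoters with an NRF-1 or CREB match. The Mrpl1 stretch lies upstream of 1 start but inside the gene, which begins at chr5:96209493.
Mrpl12 (chr11:120484465-120484612, plus strand): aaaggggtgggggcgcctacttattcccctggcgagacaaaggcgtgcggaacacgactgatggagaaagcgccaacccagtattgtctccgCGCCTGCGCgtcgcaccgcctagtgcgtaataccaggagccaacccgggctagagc
Mrps16 (chr14:20393635-20393796, minus strand): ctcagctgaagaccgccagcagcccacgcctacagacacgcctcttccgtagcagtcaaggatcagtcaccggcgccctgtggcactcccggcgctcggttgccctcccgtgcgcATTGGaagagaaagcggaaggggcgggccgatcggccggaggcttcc
Mrpl1 (chr5:96209957-96210080, plus strand): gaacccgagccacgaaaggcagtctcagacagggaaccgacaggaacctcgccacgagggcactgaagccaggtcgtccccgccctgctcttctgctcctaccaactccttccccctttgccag
Mrps21 (chr3:95871520-95871701, minus strand): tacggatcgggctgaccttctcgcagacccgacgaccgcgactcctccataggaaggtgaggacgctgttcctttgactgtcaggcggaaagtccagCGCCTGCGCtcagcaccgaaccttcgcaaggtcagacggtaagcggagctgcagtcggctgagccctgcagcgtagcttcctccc
Mrpl16 (chr19:11770188-11770390, plus strand): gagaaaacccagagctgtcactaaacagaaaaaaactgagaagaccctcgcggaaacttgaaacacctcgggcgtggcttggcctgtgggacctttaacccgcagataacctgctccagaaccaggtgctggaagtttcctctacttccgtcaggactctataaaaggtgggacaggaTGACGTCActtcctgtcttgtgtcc
Mrpl10 (chr11:97041408-97041559, plus strand): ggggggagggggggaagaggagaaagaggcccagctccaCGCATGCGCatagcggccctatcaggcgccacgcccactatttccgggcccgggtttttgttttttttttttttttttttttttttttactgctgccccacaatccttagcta

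In the stretches of Mrpl12, Mrps21 and Mrpl10 the capitals mark an NRF-1 match, in Mrps16 an NFY match, written here in the opposite orientation, and in Mrpl16 a CREB match. The next sites show how NRF-1, ETS and YY1 matches look at 8 of the promoters, each written on the strand that carries the motif, with the motif in capitals and 10 bases of its surroundings on each side.
Mrpl44 NRF-1 (chr1:79775973-79776001, plus strand): agaagcacttGCGCACGCGcagtacacta
Mrpl12 NRF-1 (chr11:120484547-120484575, minus strand): gcggtgcgacGCGCAGGCGcggagacaat
Mrpl13 NRF-1 (chr15:55557384-55557412, minus strand): aagcagatgaGCGCACGCGacggcagtag
Mrpl39 NRF-1 (chr16:84735350-84735378, plus strand): ccacgcggggGCGCATGCGcgcctctcct
Mrps18c ETS (chr5:100798592-100798619, minus strand): gcttcccgggCCGGAAGTcacgtgaccc
Mrpl18 ETS (chr17:12916314-12916341, minus strand): actgaaaacgCCGGAAGTagggggctgc
Mrpl36 YY1 (chr13:73328432-73328459, minus strand): ggtcaccggcAAGATGGCggcggtgctg
Mrpl42 YY1 (chr10:95501905-95501932, minus strand): agattgaagcAAGATGGCgagcgcgcgg

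CDK6 peaks were present at nearly all of these promoters with either variant. All 78 genes had a promoter peak in the list of CDK6-WT replicate 1 and all 78 in that of CDK6-K43M replicate 1. In CDK6-WT replicate 2, 72 genes had a peak, and in CDK6-K43M replicate 2 the number was 64. Among all protein-coding genes the corresponding shares with CDK6-WT were 47% (replicate 1) and 40.1% (replicate 2), and with CDK6-K43M 48.5% and 39.4%. A peak in at least 3 of the 4 lists, the count that the study used for regions bound by both variants, was found at 74 of the 78 genes (94.9%, 95% Wilson interval 87.5% to 98.0%), compared with 41.3% of all protein-coding genes. A peak in all 4 lists was found at 62 genes (79.5%), compared with 33.2%. None of the 78 genes lacked a peak in every list, as 48.2% of all protein-coding genes did. The count depended on weak peaks in the replicate 2 lists, and it was 35 of 78 with a minimum −log10 q of 10 and 30 of 78 when only the top 10000 peaks of each list were kept, still 27.6 and 25.5 percentage points above the share of the other protein-coding genes. The genes are the whole family and were not drawn at random, so the interval describes counting error only. The comparison with all protein-coding genes was not matched for expression or open chromatin. The series holds input libraries but no anti-HA library of cells without the tag.

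The lists hold 34729 to 39797 peaks each and no read totals, so the depth of the libraries is not stated in them. A gene without a peak had no peak past the −log10 q of 1.31 to 1.34 at which the lists begin, which is not the same as no CDK6. A peak height is an average over the cells of a library, in which fewer cells with CDK6 at a site and less CDK6 per cell cannot be told apart. The promoter windows of the family were shorter than those of other genes, with a median of 2810 bp compared with 4402 bp over all protein-coding genes.

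Peak strength was expressed as the percentile of a peak among all peaks of its own list, ranked by the −log10 q-value, with the strongest promoter peak taken for each gene and 0 where there was none. The median over the 78 genes was 88.3 in CDK6-WT replicate 1, 62.7 in CDK6-WT replicate 2, 90.6 in CDK6-K43M replicate 1 and 55.4 in CDK6-K43M replicate 2. Over all protein-coding genes this median was 0 in every list, since fewer than 50% of the genes had a peak. Where only genes with a peak in all 4 lists were considered, the medians of the 62 family members were 90.7, 65.2, 91.6 and 61.9 in the same order, and those of all 7312 such genes were 84.3, 63.4, 86.1 and 62.8. In the replicate 1 lists, then, the members in all 4 lists ranked above the other genes in all 4 lists, and in the replicate 2 lists the medians differed by less than 2 percentile points. The same split was seen among the strongest peaks. At percentile 90 or above were 35 members (44.9%) in CDK6-WT replicate 1, where 12.8% of all genes were, and 40 members (51.3%) in CDK6-K43M replicate 1, where 14.3% were. In CDK6-WT replicate 2 only 3 members (3.85%) lay there, close to the 3.4% of all genes, and in CDK6-K43M replicate 2 it was 4 members (5.13%), close to 3.55%. These shares count genes without a peak. Among genes with a peak, 2813 of 10361 lay there in CDK6-WT replicate 1 and 3158 of 10687 in CDK6-K43M replicate 1, lower shares than in the members. In replicate 2 it was 749 of 8837 (CDK6-WT) and 783 of 8672 (CDK6-K43M), higher shares than the 3 of 72 and 4 of 64 members with a peak.

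**Figure D1:**
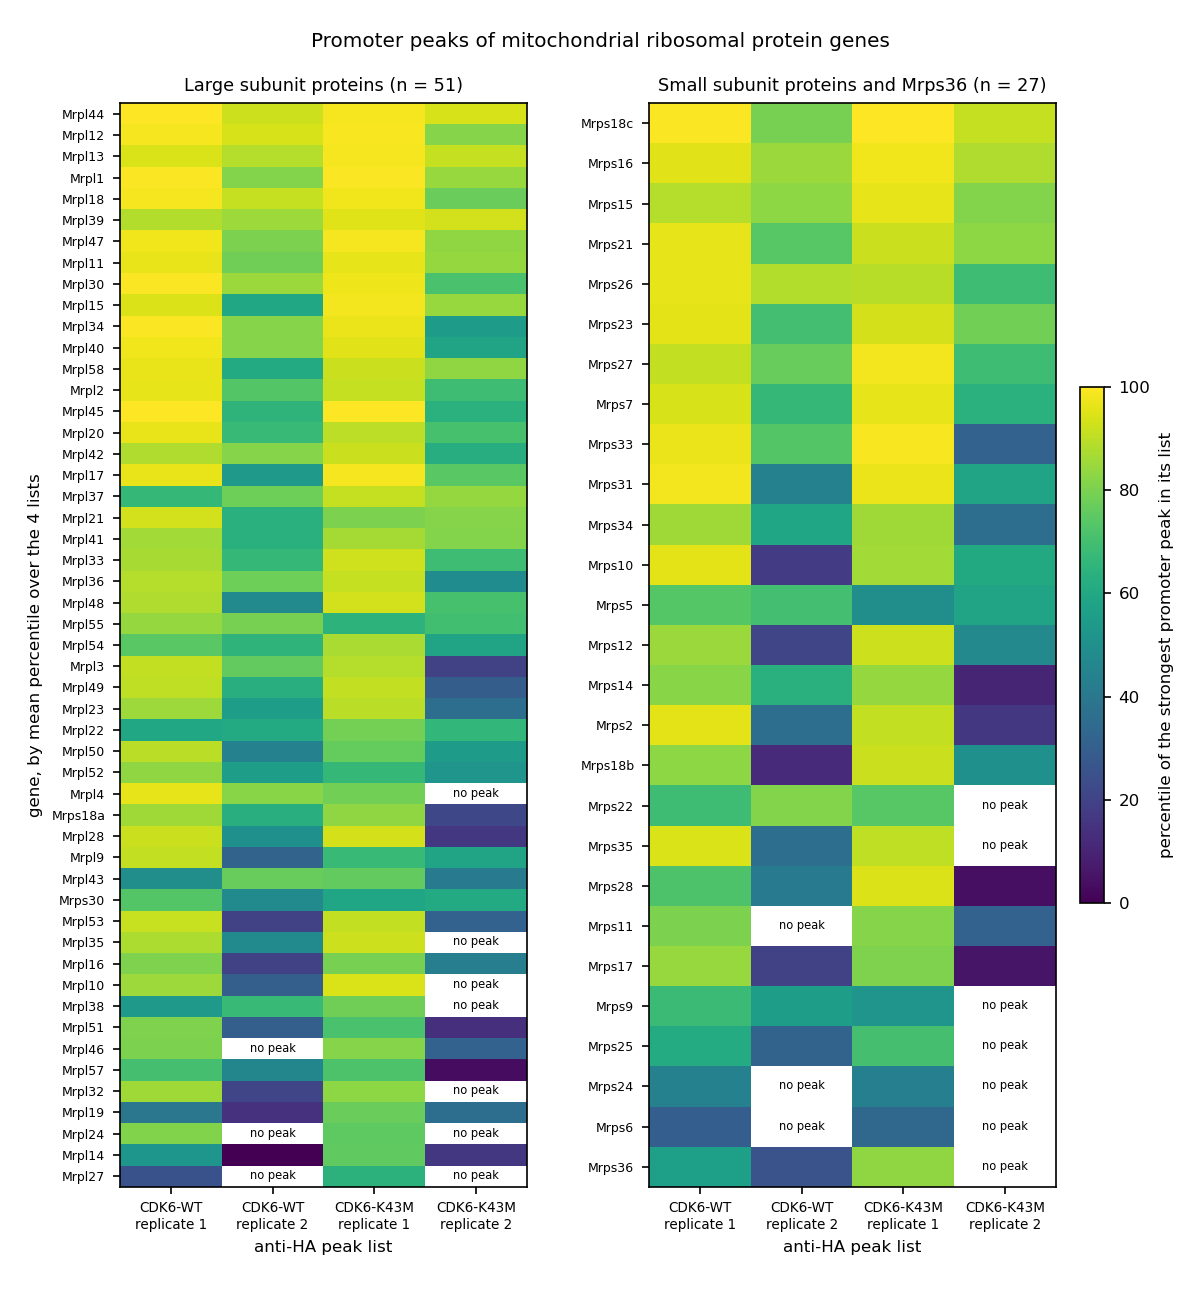
Percentile (0 to 100, colour) of the strongest promoter peak of each of the 78 genes in its own list, with 1 row per gene ordered by the mean over the 4 lists within its panel (Mrps36 last) and 1 column per peak list; white cells had no promoter peak. Both replicate 1 columns are filled throughout, and the 20 white cells lie in the replicate 2 columns, 6 in CDK6-WT and 14 in CDK6-K43M.

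The highest mean percentile belonged to Mrpl44, a large subunit protein particular to mitochondria with an RNase III-like fold. Its peak ranked at percentile 99.8 and 92.6 with CDK6-WT (replicates 1 and 2) and 98.6 and 94.1 with CDK6-K43M, at a fold enrichment over the local background of 23.9 and 11.7 (CDK6-WT) and 18.7 and 12.5 (CDK6-K43M). In CDK6-WT replicate 1 this peak spanned chr1:79775768-79776274 (mm10), and in all 4 lists its summit lay between −47 bp and −25 bp from the transcript start, negative values being upstream. Mrpl44 was thus among the top peaks of each list, whichever variant had been precipitated. Mrpl12, a stalk protein that is also known to bind the mitochondrial RNA polymerase, reached percentiles of 98.7, 94.0, 99.1 and 82.0 (CDK6-WT replicates 1 and 2, then CDK6-K43M replicates 1 and 2). Mrpl13, one of the proteins with a bacterial counterpart, reached 94.5, 88.8, 98.5 and 91.3. Mrps18c, one of the S18 paralogues and the highest of the small subunit genes, reached 99.4, 79.4, 99.6 and 91.4. All 4 values of these genes were high, and in each of them a replicate 2 list held the lowest. The others of the 10 genes with the highest mean were Mrps16, Mrpl1, Mrpl18, Mrpl39, Mrpl47 and Mrpl11. Mrpl1, of the flexible L1 stalk next to the tRNA exit site, gave 99.5, 81.6, 99.3 and 84.4, and Mrpl39 gave 88.4, 85.3, 95.1 and 93.2. Of these 10 genes, 8 encode large subunit proteins.

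The subunits were occupied alike in the count over at least 3 lists. There 49 of the 51 large subunit genes had a peak (96.1%) and 24 of the 26 small subunit genes (92.3%). In all 4 lists it was 43 large subunit genes (84.3%) and 19 small subunit genes (73.1%). The median percentiles of the large subunit genes were 88.4 and 63.4 with CDK6-WT and 90.9 and 58.4 with CDK6-K43M, and those of the small subunit genes were 87.3, 57.4, 90.7 and 41.7 in the same order. Genes whose proteins have a bacterial counterpart had a peak in at least 3 lists in 44 of 48 cases (91.7%, Wilson interval 80.5% to 96.7%), and those particular to mitochondria in 29 of 29 (100%, 88.3% to 100%). The intervals of the groups by origin overlap, as do those of the subunits. Overlap does not show that groups are equal, and no test was made, since genes are not replicates. The 4 genes with fewer than 3 lists, described next, all encode proteins with a bacterial counterpart.

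Those 4 genes were Mrpl24, Mrpl27, Mrps24 and Mrps6, and their peaks were found in replicate 1 of either variant but in no replicate 2 list. Mrpl24 ranked at percentile 80.9 in CDK6-WT replicate 1 and 75.3 in CDK6-K43M replicate 1. Mrpl27, whose bacterial counterpart reaches the peptidyl transferase centre, ranked at 25.3 and 64.4, and Mrps24 ranked at 44.0 and 43.1. Mrps6 was the lowest of the family on average, at 30.0 and 33.2, with summits 156 bp and −379 bp from a start in the respective lists. Mrps24 and Mrps6 thus ranked in the lower part of both lists that held them, and Mrpl27 in that of CDK6-WT alone. Among genes with a peak in both replicate 1 lists, absence from both replicate 2 lists was seen in 5.13% of the family and in 12.3% of all protein-coding genes.

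A further 12 genes lacked a peak in 1 list, and they are named here after their values were seen. Mrps11 and Mrpl46 lacked one in CDK6-WT replicate 2 alone (2.56% of the family and 6.83% of all genes with a peak in both replicate 1 lists). These genes lie head to head on chromosome 7 and share 1 peak, which ranked at percentile 80.2 in CDK6-WT replicate 1, 82.0 in CDK6-K43M replicate 1 and 31.3 in CDK6-K43M replicate 2, so that they are not independent of each other. The other 10 lacked a peak in CDK6-K43M replicate 2 alone (12.8% of the family, 9.09% of all genes), namely Mrpl4, Mrpl10, Mrpl32, Mrpl35, Mrpl38, Mrps9, Mrps22, Mrps25, Mrps35 and Mrps36. Their ranks in the other lists were mixed. Mrpl4 was among the higher ones, at percentile 96.4 and 82.0 with CDK6-WT and 78.8 in CDK6-K43M replicate 1, and Mrps22 ranked at 68.8, 81.3 and 74.2 in the same lists. Taken over all 14 genes without a peak in CDK6-K43M replicate 2, the median percentile in CDK6-K43M replicate 1 was 76.8, whereas it was 91.3 over the 64 genes with one.

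Over the family as a whole, the differences in count and median percentile between the variants were smaller than the spread between libraries of the same variant. No member had a peak in both CDK6-WT lists and in no CDK6-K43M list, a pattern of 0.0817% of all protein-coding genes, and none had the reverse, a pattern of 0.241%. Both zeros follow from the replicate 1 lists, where all 78 genes had a peak with CDK6-WT and all 78 with CDK6-K43M. Neither pattern could then occur, so the zeros do not compare the variants. The number of members with a peak was 75 ± 4.24 with CDK6-WT and 71 ± 9.90 with CDK6-K43M (mean ± SD, n = 2 each), a difference of −4 with p = 1 in an exact two-sided permutation test over the 6 assignments of the 4 libraries. This test cannot give a p below 0.33. Within replicate 1 the difference was 0, and within replicate 2 it was −8. The median percentile was 75.5 ± 18.1 (CDK6-WT) and 73.0 ± 24.9 (CDK6-K43M), a difference of −2.47 (exact permutation test, p = 1), made up of 2.33 within replicate 1 and −7.28 within replicate 2. The direction was not stable either, since without CDK6-K43M replicate 2 the count difference became 3 and that of the median percentile 15.1. With 2 libraries per variant, this test could not have detected a difference of any size between the variants.

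**Figure D2:**
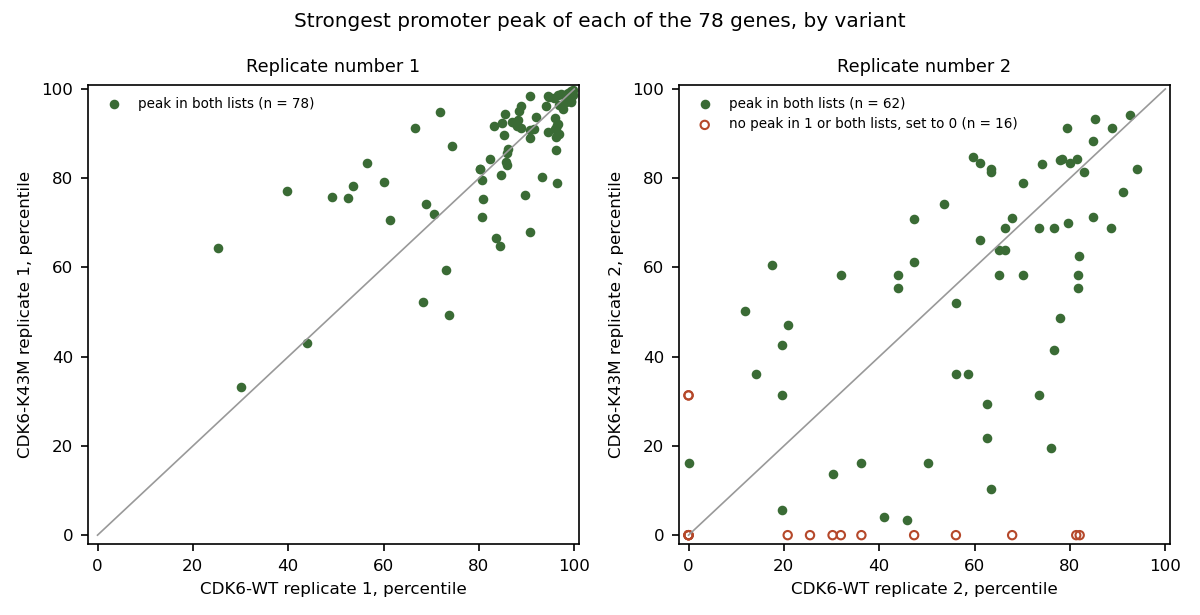
Percentile of the strongest promoter peak of each of the 78 genes in the CDK6-WT list (x axis) and in the CDK6-K43M list (y axis) with the same replicate number; the line marks equal percentiles, and open circles are genes without a peak in 1 or both lists. In replicate 1 the points gather at the upper right corner with 42 above and 36 below the line, and in replicate 2 they spread over the whole range with 33 above and 41 below.

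At single genes the direction varied. Of the 62 members in all 4 lists, 16 ranked higher with CDK6-K43M within both replicate numbers (25.8%), 15 ranked lower in both (24.2%), and 31 moved in opposite directions. Over all 7312 genes in all 4 lists these shares were 29.1% higher and 21.8% lower. Among those higher with CDK6-K43M, Mrpl19 differed the most, with percentiles of 39.7 and 14.2 with CDK6-WT compared with 77.2 and 36.2 with the mutant. Mrps18b (83.1 and 11.8 compared with 91.8 and 50.3), Mrpl14 (52.6 and 0.199 compared with 75.6 and 16.2), Mrps12, a protein of the decoding centre, and Mrpl37 followed. The replicate 2 values of Mrpl14 came from weak peaks, with a −log10 q of 1.32 (CDK6-WT) and 3.50 (CDK6-K43M). Their summits differed, at −655 bp and −371 bp from a start, so these 2 values do not compare 1 shared site. Among those lower with CDK6-K43M, Mrpl3, which lies close to the peptidyl transferase centre, had 90.7 and 76.1 with CDK6-WT compared with 89.0 and 19.5 with the mutant. Mrps18a, Mrps5, Mrpl55 and Mrpl34 followed. In Mrpl3, Mrps18a, Mrpl34, Mrps18b and Mrps12 the larger part of the difference lay within replicate 2, and the values of the variants overlapped in all 10 of these genes except Mrpl37, Mrps5 and Mrpl55.

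Values of the variants did not overlap in 7 members, named here after their values were seen. Both CDK6-K43M percentiles lay above both CDK6-WT percentiles in Mrpl39, Mrpl37 and Mrpl22 (3.85% of the family, 5.69% of all genes with a peak). The reverse held in Mrpl55, Mrpl4, Mrps5 and Mrps9 (5.13% of the family, 2.88% of all genes with a peak). For Mrpl55 the CDK6-WT percentiles were 84.3 and 79.6 and the CDK6-K43M percentiles 64.8 and 69.9, and for Mrps5 they were 73.8 and 70.2 compared with 49.4 and 58.4. Neither count stood far from its background, and an exact permutation test of a single gene cannot give a p below 0.33 with 2 libraries a variant.

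The replicate number, which is not a condition of the study, separated the libraries more than the variant did. Members with a peak numbered 78 in both replicate 1 lists and 68 ± 5.66 in the replicate 2 lists (mean ± SD, n = 2), and the median percentile was 89.4 ± 1.65 compared with 59.0 ± 5.15, a difference of 30.4. The exact permutation p was 0.333 for both, the smallest the design gives. The median fold enrichment over members in all 4 lists was 13.3 and 13.7 in replicate 1 (CDK6-WT and CDK6-K43M) and 6.70 and 6.23 in replicate 2, and the median peak width of the members was 524 and 612 bp compared with 330 and 324 bp. Over whole lists the replicates differed less. The fold enrichment at percentile 50 was 6.62 and 6.29 in replicate 1 and 5.71 and 5.45 in replicate 2. The median width of all peaks was 306 and 324 bp compared with 306 and 297 bp. At 66 of the 78 members (84.6%) both replicate 1 percentiles lay above both replicate 2 percentiles, which held for 67.5% of all genes with a peak. Mrps17 showed the largest fall among members in all 4 lists, from 84.7 and 80.8 in replicate 1 (CDK6-WT, CDK6-K43M) to 19.6 and 5.64 in replicate 2, and Mrps2, Mrpl53, Mrps28 and Mrpl28 followed. In 3 members the mean of replicate 2 was not below that of replicate 1, namely Mrps5, Mrpl37 and Mrpl55. The part of read depth, chromatin preparation or culture in this split was not tested.

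**Figure D3:**
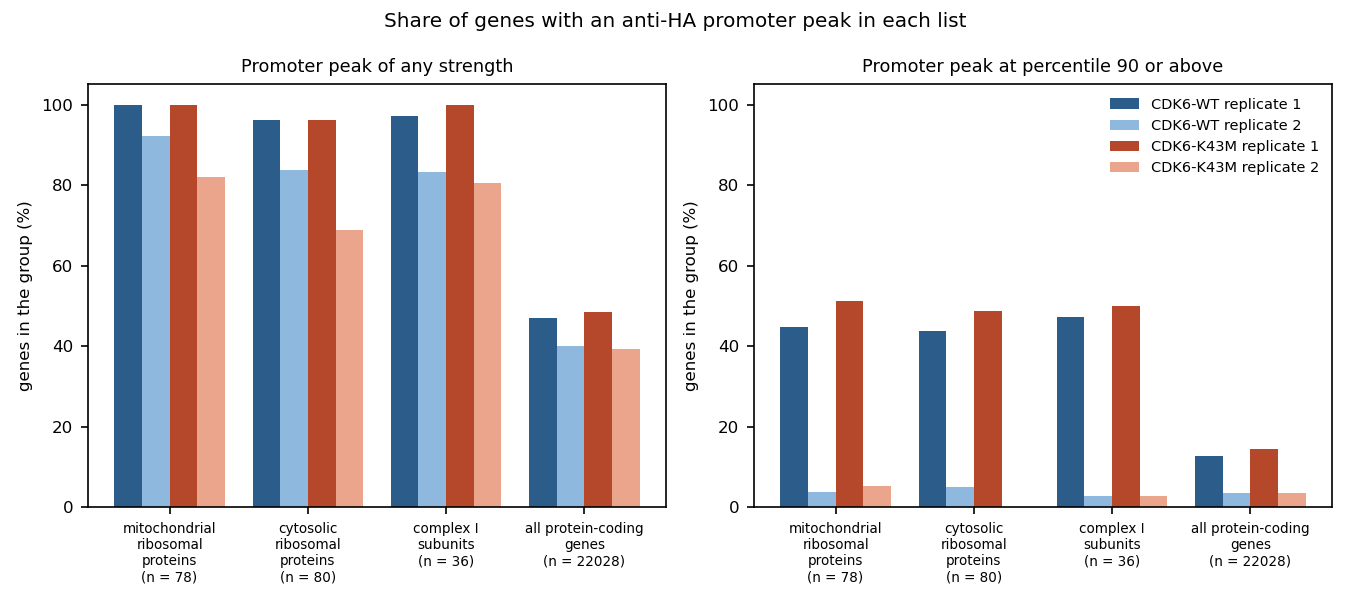
Share of genes (%) with a promoter peak of any strength (left) or at percentile 90 or above (right) in each of the 4 peak lists, for the 78 mitochondrial ribosomal protein genes, 80 cytosolic ribosomal protein genes, 36 complex I subunit genes and all 22028 protein-coding genes. In the left panel the 3 gene groups stand above all genes in every list. In the right panel they stand well above all genes in the replicate 1 lists, whereas no bar exceeds 5.13% in the replicate 2 lists.

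Other housekeeping genes were occupied in a similar way. Of 80 cytosolic ribosomal protein genes, whose products build the ribosome of the cytosol, 69 had a peak in at least 3 lists (86.3%, Wilson interval 77.0% to 92.2%), and of 36 genes for subunits of respiratory complex I, 32 did (88.9%, 74.7% to 95.6%). These intervals overlap that of the mitochondrial ribosomal protein genes. In the replicate 1 lists the medians of the 3 groups differed little, at 88.3, 88.2 and 89.2 in CDK6-WT (mitochondrial ribosome, cytosolic ribosome, complex I) and between 89.4 and 90.6 in CDK6-K43M. In the replicate 2 lists they were, in that order, 62.7, 49.2 and 55.7 in CDK6-WT and 55.4, 31.3 and 52.1 in CDK6-K43M. In CDK6-K43M replicate 2, 55 of 80 cytosolic ribosomal protein genes had a peak (68.8%), compared with 29 of 36 complex I genes (80.6%) and 64 of 78 genes of the mitochondrial ribosome (82.1%). In CDK6-WT replicate 2 the shares were 83.8%, 83.3% and 92.3% in that order. No test of these differences between gene groups was made, since genes are not replicates.

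Peaks sat on the transcript start. Among the 74 members in at least 3 lists, the summit of the strongest promoter peak lay a median of 33 bp from the nearest annotated start, compared with 66 bp over all genes in at least 3 lists, and within 100 bp in 63 members (85.1% compared with 62.6%). Of these summits, 47 lay upstream of that start (63.5%, compared with 73.2% over all such genes) and the rest at it or downstream. A gene can have several starts, so a summit upstream of the nearest one can still lie inside the gene, as in Mrpl1 and Mrpl13. For members in all 4 lists the summits of a gene spanned a median of 72 bp over the lists, and within 100 bp for 38 of the 62. Summit positions were therefore closer to each other than the width of a peak in most of the family, whichever variant was precipitated.

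**Figure D4:**
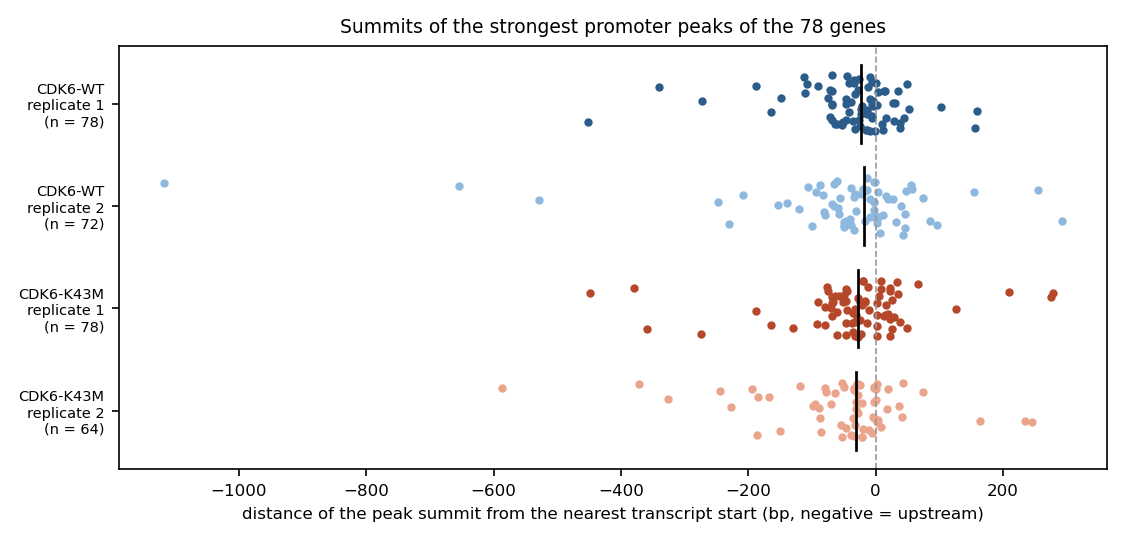
Distance (bp) of the summit of the strongest promoter peak from the nearest transcript start of its gene, with 1 point per gene and 1 row per peak list (points are spread vertically for visibility); negative values are upstream, black bars are medians. The medians lie between −30.5 and −17.5 bp in the 4 lists, and 78.1% to 85.9% of the summits fall within 100 bp of a start.

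Some genes, chosen after their values were seen, changed position with the replicate number. In Mrps23 the summit lay 4 bp and −10 bp from a start in replicate 1 (CDK6-WT, CDK6-K43M) and −528 bp and −587 bp from it in replicate 2. In Mrpl14 these distances were 52 bp and 22 bp in replicate 1 and −655 bp and −371 bp in replicate 2. Mrpl37 had summits at −4 bp and −19 bp in replicate 1 and at −230 bp and −245 bp in replicate 2. In each of these genes the variants lay closer to each other than the replicates did, and presence in 4 lists there does not mean 1 shared site.

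Many members share their promoter with a neighbour. At 31 of the 74 members in at least 3 lists (41.9%) the strongest peak also overlapped the promoter of a protein-coding gene on the opposite strand, compared with 22.6% of all such genes, 24.6% of the cytosolic ribosomal protein genes and 40.6% of the complex I genes. At such promoters the peak cannot be given to either gene. The neighbours of the named members have varied roles. Mrpl47 lies head to head with Ndufb5 and Mrpl36 with Ndufs6, both complex I subunits, Mrpl43 with Twnk, the helicase of mitochondrial DNA, and Mrps12 with Sars2, the mitochondrial seryl-tRNA synthetase. Among the other neighbours were Tcp1, a subunit of the cytosolic chaperonin, next to Mrpl18, the helicase gene Helq next to Mrps18c, and Wdfy1 next to Mrpl44. Mtbp lay next to Mrpl13, Mitd1 next to Mrpl30 and Ptcd2 next to Mrps27. Fau, which encodes a cytosolic ribosomal protein fused to a ubiquitin-like protein, lay next to Mrpl49. This list is not complete, and leaves out for example Abhd8 next to Mrpl34 and Psma2 next to Mrpl32. Over all 78 genes the 32 with such a neighbour had median percentiles of 87.5, 64.3, 91.2 and 55.4 (CDK6-WT replicates 1 and 2, then CDK6-K43M) and the 46 without had 88.3, 60.4, 89.8 and 55.2. The ranks with a neighbour were lower in CDK6-WT replicate 1 and higher in the other lists, by at most 4 percentile points, and no test of this was made.

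The motifs were searched on both strands in windows that reached 100 bp to either side of the strongest summit. They were GCGCANGCG for NRF-1 (N is any base), CCGGAAGT for ETS factors, AAGATGGC for YY1, GGGGCGGGG for SP1, ACTACAATT for ZNF143/GFY, CCAAT for NFY, TGACGTCA for CREB, CACGTG for the MYC E-box and TGTGGTT for RUNX. An NRF-1 match was found in 22 of 74 members in at least 3 lists (29.7%, Wilson interval 20.5% to 40.9%) and in 15.4% of the windows of all 9100 genes in at least 3 lists. YY1 matched in 8 members (10.8%, Wilson interval 5.58% to 19.9%), an interval that begins just above the 5.03% of all genes. ETS matched in 11 (14.9%, 8.51% to 24.7%), an interval that holds the 9.60% of all genes. With windows of 50 bp to each side NRF-1 matched in 12 members (16.2%) and 9.31% of all genes, so that part of the matches lay away from the summit. NFY, at 20 members (27.0%), lay close to the 24.8% of all genes. SP1 matched in 6 members (8.11%, Wilson interval 3.77% to 16.6%), an interval that holds the 13.4% of all genes, and the MYC E-box in 1 member (1.35%, 0.239% to 7.27%, Mrps18c), an interval below the 8.97% of all genes. CREB matched in 2 members (Mrpl16 and Mrpl49, 2.70% compared with 3.08%) and RUNX in 1 (Mrpl52, 1.35% compared with 3.32%). ZNF143/GFY matched in none, compared with 0.802% of all genes, where 3 counts of 74 set an upper limit of 4.05% (the Wilson interval drawn in the plot of motif shares reaches 4.94%). None of the 9 motifs was found in 20 members (27.0%), compared with 39.2% of all genes. Base composition was close, with a median GC content of 63.9% in the windows of the members and 64.2% over all such genes, and a CpG observed to expected ratio of 0.881 compared with 0.854. A match is a run of letters and does not show that the factor was bound.

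**Figure D5:**
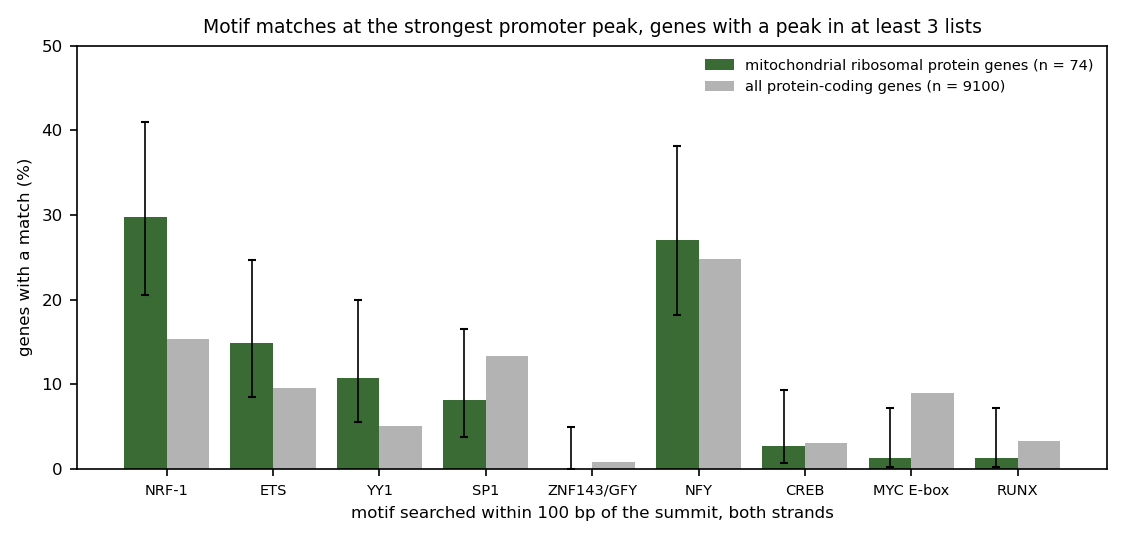
Share of genes (%) with a match to each of the 9 motifs within 100 bp of the summit, for the 74 mitochondrial ribosomal protein genes in at least 3 lists (green, error bars are 95% Wilson intervals) and for all 9100 protein-coding genes in at least 3 lists (grey). The NRF-1 bar stands at 29.7% compared with 15.4%, with an interval above the grey bar, and the MYC E-box at 1.35% compared with 8.97%.

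Over all 78 genes, 7 had more than 1 NRF-1 match, but in Mrpl39 and Mrpl9 these were 1 stretch that matched on both strands. NRF-1 matches occurred in 23 genes. They were Mrpl44, Mrpl12, Mrpl13, Mrpl39, Mrpl30, Mrpl45, Mrpl17, Mrpl36, Mrpl54, Mrpl22, Mrpl9, Mrpl10, Mrpl57, Mrpl32 and Mrpl14 of the large subunit and Mrps21, Mrps26, Mrps33, Mrps12, Mrps18b, Mrps28, Mrps9 and Mrps6 of the small subunit. For each gene the match nearest to a transcript start was taken. The median distance of these matches from the start was −29 bp, and in 15 of the 23 genes this nearest match lay upstream. Of the 4 genes with the highest mean percentile, 3 carried an NRF-1 match, but over the whole family the ranks with and without a match lay close together. The 23 genes with a match had median percentiles of 88.4, 61.1, 91.9 and 58.4 (CDK6-WT replicates 1 and 2, then CDK6-K43M), and the 55 without had 88.2, 62.7, 89.7 and 55.4. The range of the carriers ran from Mrpl44 at the top to Mrps6 at the bottom of the family.

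YY1 matches behaved differently in position. They occurred in 9 of the 78 genes, at Mrpl35, Mrpl36, Mrpl37, Mrpl42, Mrps10, Mrps18a, Mrps24, Mrps27 and Mrps36, with a median position 9 bp downstream of the transcript start. In 5 of them (Mrpl35, Mrps10, Mrps18a, Mrps24 and Mrps27) the ATG within the match was the annotated start codon of the gene, so the letters there also serve the reading frame. The Mrpl36 match, printed above, lay on the opposite strand at −68 bp from its start, towards Ndufs6.

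Other genes of mitochondrial translation and transcription also carried CDK6 peaks. Of 50 further genes, 44 had a peak in at least 3 lists (88.0%, Wilson interval 76.2% to 94.4%, compared with 41.3% of all protein-coding genes) and 29 in all 4 (58.0%, compared with 79.5% of the Mrpl and Mrps genes). Their median percentiles were 81.4 and 41.2 with CDK6-WT and 85.7 and 35.8 with CDK6-K43M, below those of the Mrpl and Mrps genes in each list, a difference that was not tested. They comprised 5 of 5 genes for subunits of the mitochondrial ribosome with other names, such as Dap3 of the small subunit, 21 of 24 genes for assembly and ribosomal RNA modification, 13 of 15 for translation factors and 5 of 6 for mitochondrial transcription. The highest means belonged to Tsfm, a mitochondrial elongation factor, with percentiles of 98.1 and 71.4 with CDK6-WT and 94.5 and 90.7 with CDK6-K43M, to Mtg1, a GTPase of large subunit assembly, with 83.2, 81.3, 95.4 and 82.3, and to Taco1, an activator of mitochondrial translation, with 99.0, 81.6, 99.2 and 60.4. Ddx28, an RNA helicase of large subunit assembly, was the single gene with a peak in fewer than 2 lists, at percentile 93.3 in CDK6-K43M replicate 1. Tfam, which packages mitochondrial DNA and starts its transcription, had a peak in all 4 lists, at 87.7, 39.8, 91.3 and 67.7. No list held a peak on the mitochondrial chromosome itself. Whether its reads passed the filters before peak calling is not stated, so this does not show that CDK6 was absent there.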

How the data were processed

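Peak lists of 4 anti-HA ChIP-seq libraries were analysed, and the 2 input libraries were not used here. As the study and the submitters' processing notes describe, the authors trimmed reads with Trimmomatic 0.36, mapped them to mm10 with BWA 0.7.15, removed blacklisted regions (bedtools) and multimapping reads (SAMtools 1.3.1), and called peaks per library with MACS2 2.1.0. The deposited lists give a fold enrichment (a ratio), the −log10 p and −log10 q at the summit, a score that follows 10 times the −log10 q, and the summit offset as other information. No read totals are given, so depth and precision per library are unknown. Promoter windows, percentiles, Wilson intervals, exact permutation tests and motif counts were computed with Python 3.11.15 (pysam 0.24.0, scipy 1.17.1, pandas 2.3.3, numpy 2.4.6), and tested on simulated peaks (0 wrong values over 1639 genes of chromosome 11). Motif windows on unplaced scaffolds were left out (9100 of 9102 genes remained). The members, lists and motifs were chosen with earlier results of these data known. Named members are the 10 with the highest mean percentile, those with a peak in fewer than 3 lists, the 5 with the largest differences in each direction between variants (same sign in both replicate numbers) and between replicate numbers (members in all 4 lists), and those with an NRF-1, YY1, ZNF143/GFY or CREB match. Some of their opposite-strand neighbours are named too. The list of 51 further mitochondrial genes had 50 in the annotation used, and 1 is not analysed here. Of these genes, the 3 with the highest mean percentile and those in fewer than 2 lists are named by rule, and Dap3 and Tfam were added after their values were seen. The alternatives were stricter or equal list lengths, other promoter, overlap, transcript and motif windows, ranking by fold enrichment, merged regions, dropping 1 library at a time, and a block on the replicate number.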

Additional observations from a re-analysis of the deposited data

How the results depend on the processing

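Of 109 alternative values over 16 results, 87 kept their direction and either their side of the test's threshold or, without a test, a count within 1.5 times or a share within the Wilson interval, while 17 moved and 5 changed sign. For results with a test the side of the threshold was fixed in advance, since p cannot fall below 0.33 (0.5 with the block). A tested value therefore counted as kept by its sign alone, whatever its size. With a minimum −log10 q of 10, 35 members were found in at least 3 lists and 16 in all 4, and the difference in share from other genes was 27.6 percentage points, compared with 74, 62 and 53.7. With the top 10000 peaks per list these values were 30, 12 and 25.5. Under these settings more than 50% of the members had no peak in a replicate 2 list, so the medians there became 0 by construction: the median percentile difference between variants became 1.165 under both, and the difference between replicate numbers 89.4 instead of 30.4, while the count difference between replicate numbers was 47 and 41.5 instead of 10 (24.5 with a minimum of 5). Leaving out 1 library gave variant differences of −11 to 3 in the count and −20.1 to 15.1 in the median percentile, with the signs turned without CDK6-K43M replicate 2 (3 and 15.1) and, for the percentile, without CDK6-WT replicate 1 (10.3). The count difference between replicate numbers was 6 without CDK6-K43M replicate 2. With 3 lists left, 74 to 78 members had a peak in at least 2 of the 3 and 62 to 72 in all 3. A merged region with peaks of at least 3 lists was found at 73 members, Mrpl37 being lost. With 50 and 200 bp motif windows the numbers of members were 12 and 24 for NRF-1, 4 and 13 for YY1, 3 and 11 for SP1, 13 and 32 for NFY, 1 and 2 for CREB, 0 and 3 for the MYC E-box, and 1 and 4 for RUNX.

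With the replicate number as a block, the variant differences were −4 in the count and −2.47 in the median percentile, each with p = 1 in an exact sign-flip test whose smallest p is 0.5. Deviations of same-numbered libraries from their variant's mean correlated at 0.346 across members, but 2 pairs cannot show that the numbers pair the samples. The missing read totals limit all comparisons of strength between lists.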

Other observations

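Peaks inside the gene but outside the promoter window occurred at 16 members (20.5%) in each replicate 1 list, where 24.9% (CDK6-WT) and 28.3% (CDK6-K43M) of all protein-coding genes had one. In replicate 2 it was 8 members (10.3%, compared with 24.5%) with CDK6-WT and 7 (8.97%, compared with 25.6%) with CDK6-K43M, and gene length was not taken into account. Mrpl1, Mrpl35, Mrpl48 and Mrps27 had such a peak in all 4 lists. More than 1 promoter peak was found at 14 and 10 members with CDK6-WT (17.9% and 12.8% in replicates 1 and 2, compared with 16.5% and 12.9% of all genes) and at 20 and 10 with CDK6-K43M (25.6% and 12.8%, compared with 17.3% and 13.1%). Only 39.4% to 48.5% of all genes had any promoter peak in a list, so these shares do not compare the members with other genes that had a peak.

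Across the 78 members, Spearman's rho of the percentiles was 0.768 between the replicate 1 lists and 0.618 between the replicate 2 lists. Between replicates of the same variant it was 0.555 for CDK6-WT and 0.598 for CDK6-K43M. These are descriptions over genes, which are not independent replicates and include pairs such as Mrps11 and Mrpl46 with 1 shared peak, and the 4 lists share cell background and antibody.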
